A study of Saccharomyces cerevisiae with 2 samples.

Results

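The 56 genes described here encode the proteins of the small (40S) subunit of the cytosolic ribosome of budding yeast, Saccharomyces cerevisiae. They were chosen by name alone, as every gene whose symbol is RPS followed by a number and an optional A or B, and they are 56 of 5909 reading frames that could be placed on the probes. The list holds 24 A/B paralog pairs and 8 single-copy genes on 14 chromosomes. All cells were of strain MDY513, which carries a deletion of HTZ1, and so lacks the histone variant H2A.Z. They were arrested with the mating pheromone alpha factor (4 µg/mL for 4 hours) and then placed in rich medium with 2% galactose, and chromatin was taken 180 min after induction. As known of the study rather than from the labels, the strain makes one Myc-tagged histone H3 constitutively and one Flag-tagged H3 from a galactose-induced promoter, so the ratio of Flag to Myc sets newly made H3 against H3 of all ages and asks where H3 is replaced in arrested cells. Both immunoprecipitates were amplified through RNA and hybridised together to 2-colour arrays, the Flag precipitate in Cy3 and the Myc precipitate in Cy5.

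There was 1 group of 2 arrays, replicates 1 and 2, with no other strain, time or dye swap, so a dye effect and a histone effect cannot be told apart and no condition was compared with another. Whether the replicates came from separate cultures is not given, so the p-values measure only how the 2 arrays differ, which may be technical. Over 34899 used probes the arrays correlated at r = 0.97, with a median SD between them of 0.16 on the log2 scale. The single HTZ1 frame probe was dark on both arrays in Flag and in Myc.

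Ribosomal protein genes are among the most strongly transcribed genes of growing yeast, and their output falls when growth stops. Many are driven by the DNA-binding factor Rap1 with Fhl1 and Ifh1, under the control of the nutrient-sensing TOR kinase and of Sfp1, and their promoters are known for wide regions with few stable nucleosomes. After a genome duplication most of these genes kept a second copy, whose protein is identical or nearly so, while introns and promoters differ.

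Each value is the log2 of Flag over Myc after subtraction of the array's median, so 0 marks the median probe and does not mean that both histones were equally abundant. A higher value can come from more Flag or from less Myc signal, and the ratio alone cannot tell these apart. The value of a frame is the mean of its probes between start and stop codon, introns included, and the value of a promoter is the mean of its probes within 500 bp upstream of the start codon that lie in no frame. The call "higher" or "lower" means an adjusted p under 0.05 from limma, fitted over all genes of the table. Of 115 probes in RPS frames 107 were used, and they covered 53 genes, 15 of them with a single probe and none with more than 4. RPS29A and RPS29B were among the genes with no frame probe.

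The reading frames of the small-subunit genes mostly carried a higher ratio than the array median. Of the 53 measured frames 41 were higher, against 39.1% of all 5587 genes tested, and 2 were lower, against 42.9%. The other 10 did not pass. The median frame stood at 0.63, at 0.57 on replicate 1 and 0.59 on replicate 2, against -0.06 over all genes. Frames of RPS genes are short, from 171 to 1214 bp, and short frames had higher ratios throughout the genome. The correlation of a frame's value with its length was -0.33 over the 53 RPS genes and -0.41 over 5534 other genes. Among the 2666 other genes in the same length range 55.8% were higher, 24.8% were lower, and the median was 0.40. Most of the distance from the all-gene median was therefore also present in other short genes. The 64 measured genes of the large subunit (RPL) had 45 higher frames and a median of 0.69.

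**Figure D1:**
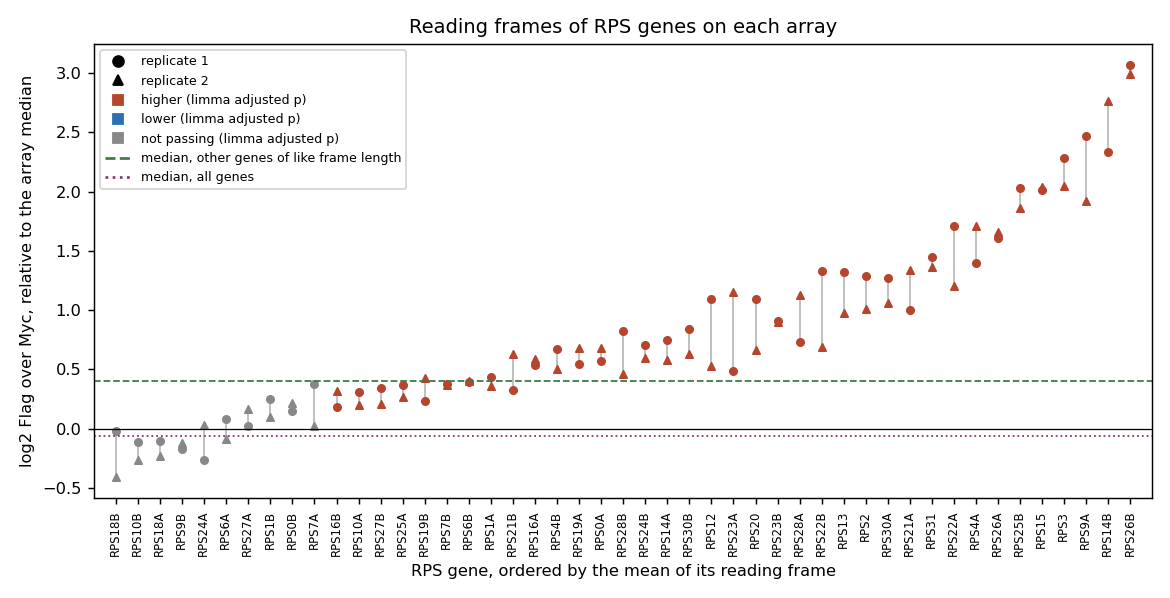
Centred log2 Flag over Myc of 47 RPS reading frames, ordered by their mean. Circles and triangles are replicates 1 and 2, colours give the limma call, and the lines mark the medians of other genes in the RPS length range (0.40) and of all genes (-0.06). The frames drawn run from -0.21 for RPS18B to 3.03 for RPS26B.

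RPS26B, one of the genes for a protein of the mRNA exit channel that the chaperone Tsr2 carries, had the highest frame. Its single probe, which is centred 318 bp from the start codon on chromosome 5 (424237 to 424296), read 3.07 and 2.99 on the 2 arrays. The mean of 3.03 ± 0.06 (SD, n = 2) is 8.17 times the array median (limma adjusted p = 1.7e-07). RPS14B, a copy of the gene for a platform protein that is known to repress RPS14B itself, read 2.33 and 2.76, also on 1 used probe (adjusted p = 1.2e-06 with limma). A second RPS14B probe was left out for low signal. It read 2.80 and 2.38, in the same range as the first.

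RPS9A, which encodes a protein at the mRNA entry that affects decoding accuracy, had 2.47 and 1.92 over 4 probes (2.19 ± 0.39, limma adjusted p = 4.9e-06). RPS3, a single-copy gene for a head protein at the mRNA entry channel, had 2.28 and 2.05 over 3 probes (2.17 ± 0.16, limma adjusted p = 1.0e-06). Of the highest 6 frames these 2 rested on more than 1 probe. RPS15, single-copy and coding for a head protein that reaches towards the decoding site, had 2.01 and 2.04 on 1 probe. A second RPS15 probe, at 109 bp, carried an outlier flag and read 1.19 and 1.72. With flagged probes kept, RPS15 was at 1.74. RPS25B, whose protein is needed for initiation at some viral internal entry sites, had 2.03 and 1.86 on 1 probe. By the used probes, each of these 6 lay above every RPS frame outside the 6 on both arrays. For RPS15 this rests on leaving out its flagged probe.

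The 10 frames that did not pass were RPS18B at -0.21 ± 0.27, RPS10B at -0.19 ± 0.11, RPS18A at -0.16 ± 0.09, RPS9B at -0.14 ± 0.04, RPS24A at -0.12 ± 0.20, RPS6A at -0.01 ± 0.12, RPS27A at 0.09 ± 0.11, RPS1B at 0.18 ± 0.10, RPS0B at 0.19 ± 0.05 and RPS7A at 0.20 ± 0.25. Both copies of RPS18, the gene for a head protein that contacts the large subunit, were among them. RPS24A changed sign between the arrays, at -0.26 and 0.03.

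All 8 single-copy genes had a higher frame, up to 2.17 for RPS3, with a median of 1.15. Among the others were RPS12 at 0.81 ± 0.40, RPS20 at 0.88 ± 0.31, RPS2, for a protein of the mRNA entry, at 1.15 ± 0.20, RPS13 at 1.15 ± 0.25, RPS31, which is made as a fusion with ubiquitin, at 1.40 ± 0.06, and RPS15. A copies were higher in 16 of 23 and lower in 2, with a median of 0.61. B copies were higher in 17 of 22 with none lower, and their median was 0.49. Over all genes 39.1% of frames were higher and 42.9% lower, and over other genes of the RPS length range 55.8% and 24.8%. The frames of RPS12, RPS15, RPS20 and RPS31 are of 366 to 459 bp, against a median of 766 bp over the list. Those of RPS2, RPS3 and RPS13 are of 723 to 995 bp. Whether single-copy and paired genes differ was not tested.

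Frames were divided into 3 sections of equal length, and along them the medians of the small-subunit genes differed from those of other genes in the same length range. In the section next to the start codon the medians were 0.61 over 44 RPS probes and 0.56 over 2278 probes of other genes. In the middle section they were 0.46 over 36 probes and 0.11. In the section next to the stop codon they were 1.01 over 27 probes and 0.25. On replicate 1 the RPS medians of the sections were 0.65, 0.55 and 1.09, and on replicate 2 they were 0.67, 0.37 and 0.93. The section at the stop codon was therefore the highest on both arrays in RPS genes, while in other genes it was the section at the start codon. The difference between the profiles was not tested, and the 3 sections are not filled by the same genes. Among single probes, 70 of 107 RPS frame probes were higher, against 40.5% of all used probes, and 8 were lower, against 40.1%. These shares of all used probes take in promoters and frames of any length.

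Upstream of the start codon the most marked feature was missing signal. Of 114 probes in RPS promoters 57, or 50%, failed to reach the scanner's limit for signal well above background in at least 1 channel of at least 1 array, and are called dim here, against 27.3% of 10038 promoter probes of other genes. Of the 114 probes 24, or 21.1%, were dark in both channels on both arrays, against 8.08% in other genes, and 22 of the 56 genes had at least 1 such probe. Dim probes were most frequent 200 to 300 bp before the start codon, where 19 of 23 RPS probes (82.6%) were dim, against 31.5% in other genes. From there the share fell on both sides, to 56% between 100 and 200 bp, 52.4% between 300 and 400 bp, 33.3% beyond 400 bp and 25.9% within 100 bp of the start codon. In other genes the shares of these 4 bins were 32.9%, 30.9%, 27.2% and 17.6%. No RPS probe within 100 bp of the start codon was dark throughout, of 27. Both precipitates were affected: Flag failed at 38.6% of RPS promoter probes and Myc at 46.5%, against 18.2% and 23.7% in other genes. A promoter probe upstream of more than 1 gene was counted for each of them. Probes that RPS genes share with neighbours are thus in both groups. In RPS frames 2 of 115 probes were dim.

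**Figure D2:**
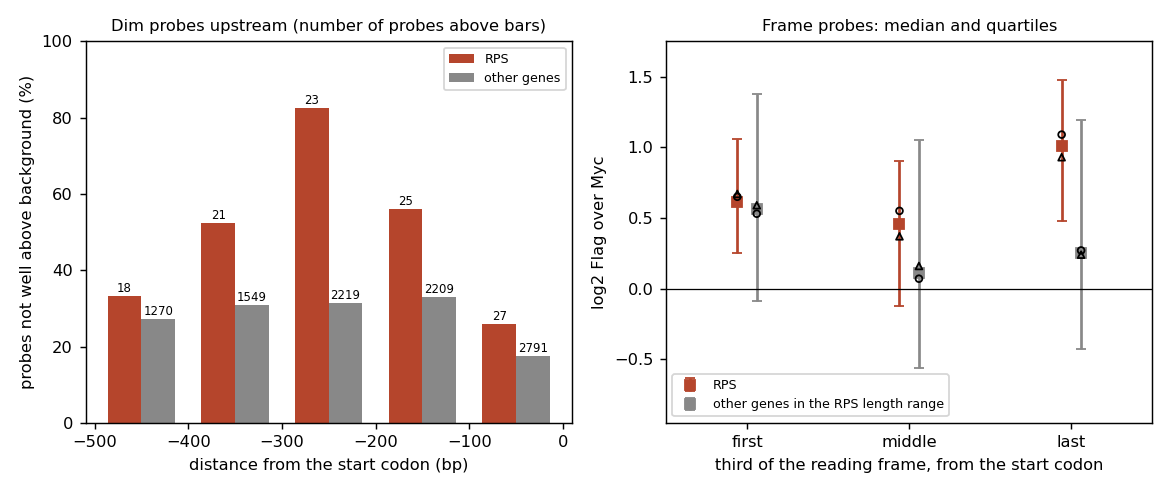
Left, the share of promoter probes not well above background by distance from the start codon, for RPS genes and other genes, with the number of probes above each bar. Right, medians of log2 Flag over Myc by section of the frame, with quartiles as bars and the medians of replicates 1 and 2 as open circles and triangles. The RPS share reaches 82.6% between 200 and 300 bp upstream, and the last section of RPS frames has a median of 1.01 against 0.25 in other genes of like length.

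Of the 57 promoter probes with signal 3 carried an outlier flag, so the promoter values below describe 54 probes in 39 of the 56 genes. The other 17 were RPS30B, with no promoter probe, and 16 genes whose promoter probes all fell out, among them RPS1B, RPS4B, RPS10B, RPS12, RPS14B, RPS18B, RPS20, RPS21A, RPS21B, RPS27A, RPS28A, RPS30A and RPS31. After plain centring these promoters did not stand apart from those of the genome. Of the 39, 32 were higher than the array median, against 75.9% of 4548 promoters tested, and 1 was lower, against 6.97%. Their median was 0.96, at 0.94 and 0.95 on the arrays, against 0.99 over all promoters. With a loess curve fitted within each array instead, 25 were higher, against 71% of all promoters. The RPS median was then 0.62, against 0.94 over all promoters. The 4 measured promoters of single-copy genes were all higher.

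RPS3 and RPS9A had by far the highest promoters of the list. The single used RPS3 probe, centred 419 bp upstream on chromosome 14 (302232 to 302291), read 4.14 and 4.04. Nearer to the gene, at 70 bp upstream, the RPS3 probe was well above background for Flag but not for Myc on either array, so only a bound can be given there, at least 8.43 times the array median. The RPS9A probe at 389 bp upstream on chromosome 16 (404529 to 404588) read 3.61 and 3.55. It also lies upstream of MOT1, a divergent gene for a remover of TATA-binding protein from DNA, and cannot be assigned to one of them. The second RPS9A promoter probe, at 117 bp, was dim and read 0.88 and 1.48. With dim probes kept, the RPS9A promoter was at 2.28.

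Next came RPS7B at 1.77 ± 0.32, RPS25B at 1.69 ± 0.32, RPS26A at 1.68 ± 0.08 and RPS26B at 1.67 ± 0.36, all called higher. They overlap within their SDs, so their order is not resolved. RPS29B, one of the genes for a small zinc-binding protein of the head, had the only lower promoter (-0.60 ± 0.28, limma adjusted p = 4.4e-04). Its probes read -0.55 and -0.93 at 320 bp and -0.27 and -0.66 at 60 bp, below 0 on both arrays. With normexp background correction it was at -0.08 and did not pass. Among those not passing were RPS22B at 0.03 ± 0.01, RPS1A at 0.21 ± 0.34, RPS9B at 0.28 ± 0.15, RPS19B at 0.28 ± 0.18 and RPS28B at 0.31 ± 0.12. Promoter p-values rest on 1 common spread that limma took over all genes, since genes did not differ measurably in it. Of the 39 promoters 25 had a single used probe, and 10 of the genes shared a used one with a neighbouring gene. Ribosomal protein genes of both subunits share promoter probes too, RPS16A with RPL13B, RPS16B with RPL13A and RPS22A with RPL39. These shared probes were dim and not used.

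The usual excess of promoter over frame was smaller in these genes. Among the 36 with both values the promoter was higher in 17, against 69.4% of 4399 genes, and lower in 4, against 10.4%. Among 2050 other genes of the same length range 55.5% were higher and 16.6% lower. In the 41 RPL genes with both values 19 were higher and 10 lower, with a median difference of 0.36. A smaller excess was thus shared by genes of both subunits. The other 15 RPS genes did not pass. The median difference was 0.33, at 0.32 and 0.27 on the arrays, against 0.91 over all genes and 0.55 over those of the same length range. With a loess curve fitted within each array in place of plain centring, 10 were higher, 10 were lower and the median was -0.04, while the median of all genes was 0.85. The RPS median was 0.10 over 27 genes with shared promoter probes left out, and 0.15 over 38 genes with outlier-flagged probes kept, where the medians of all genes were 0.96 and 0.87. The size of this difference in RPS genes thus depends on the normalization and on the choice of probes.

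The promoter exceeded the frame most in RPS3 (1.86 and 1.98, limma adjusted p = 1.0e-07), RPS18A (1.51 ± 0.21), RPS7B (1.40 ± 0.31), RPS9A (1.39 ± 0.35), RPS27B (1.15 ± 0.11) and RPS6B (1.09 ± 0.28), the last for a protein phosphorylated under TOR control. RPS26B went the other way, with a promoter minus frame difference of -1.15 and -1.57 (-1.36 ± 0.30, limma adjusted p = 6.3e-06). RPS22B at -0.98 ± 0.45 and RPS15 at -0.60 ± 0.38 were lower as well. With dim probes kept, RPS9A was at 0.18 and did not pass. RPS22A at -0.44 ± 0.92 and RPS4A at -0.37 ± 0.11 did not pass. Over the 36 genes promoter and frame correlated at r = 0.56, close to 0.53 over 4363 other genes. These are correlations across genes of the same 2 arrays.

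**Figure D3:**
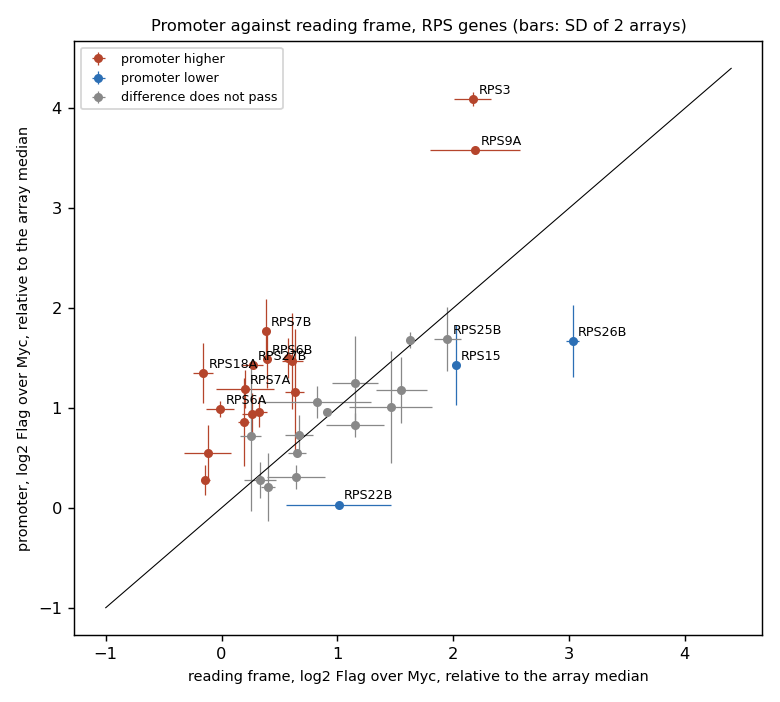
Promoter against reading frame for 33 of the 36 RPS genes with both values, as centred log2 Flag over Myc, with SDs of the 2 arrays as bars and colours for the limma call on their difference. RPS3 and RPS9A lie above the diagonal at promoter values of 4.09 and 3.58, and RPS26B lies below it with a frame at 3.03.

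Paralogs of one protein often differed from each other in the frame. Of 22 measured pairs 14 passed, against 20 of the 29 other pairs of A- and B-named genes in the fit. Over all 51 pairs, RPS included, 66.7% passed, so RPS pairs differed about as often as other such pairs. The other pairs were taken by the same naming rule, so RPL pairs can be among them. The A copy was higher in 7 and the B copy in 7. The median size of the difference was 0.44, against 0.61 in the 29 other pairs, and 6 RPS pairs differed by more than 1 on the log2 scale. A and B values correlated at r = 0.19 over the 22 pairs. Coding sequences of paralogs can be nearly identical, so a probe may read both copies. How far that happened was not tested.

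The widest pair was RPS9. RPS9A had 2.47 and 1.92 where RPS9B had -0.17 and -0.12, a difference of 2.34 ± 0.42 or 5.05-fold (limma adjusted p = 0.0083). Probe by probe, RPS9A read 1.63 at 42 bp from the start codon and 2.25, 2.50 and 2.40 at 319, 745 and 1059 bp. RPS9B read 0.29 at 113 bp, -0.68 at 291 bp and -0.03 at 617 bp, so the lowest RPS9A probe lay above all used RPS9B probes. The remaining RPS9B probe, at 931 bp, carried an outlier flag and read 1.03 and 0.42.

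RPS14 differed in the other direction, with 0.75 and 0.58 for RPS14A and 2.33 and 2.76 for RPS14B (-1.88 ± 0.42).

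RPS25 and RPS26 allow a comparison at matched places, since their frames have equal length and their probes nearly the same position. RPS25A read 0.37 and 0.27 at 204 bp, and RPS25B read 2.03 and 1.86 at 207 bp (-1.63 ± 0.05, limma adjusted p = 0.0042). RPS26A read 1.61 and 1.66 at 313 bp, and RPS26B read 3.07 and 2.99 at 318 bp (-1.40 ± 0.10, limma adjusted p = 0.0058). In both pairs the B copy was higher on each array by more than the spread between arrays.

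Among the smaller differences that passed were RPS4 at 0.97 ± 0.35, RPS24 at -0.77 ± 0.28, RPS21 at 0.69 ± 0.03, RPS22 at 0.45 ± 0.10, RPS10 at 0.45 ± 0.03, RPS0 at 0.44 ± 0.03, RPS30 at 0.43 ± 0.00 and RPS6 at -0.40 ± 0.12, each as A minus B. Of these, RPS0, RPS6, RPS10, RPS22 and RPS30 lost their call under at least 1 alternative setting. RPS16 at 0.32 ± 0.06, RPS28 at 0.29 ± 0.53, RPS19 at 0.29 ± 0.05, RPS1 at 0.23 ± 0.04, RPS27 at -0.18 ± 0.20, RPS7 at -0.18 ± 0.24, RPS23 at -0.08 ± 0.47 and RPS18 at 0.05 ± 0.18 did not pass. The closest pairs changed sign between the arrays. RPS18A minus RPS18B was -0.08 and 0.18, and RPS23A minus RPS23B, for a protein of the decoding centre, was -0.42 and 0.25. RPS7 was -0.01 and -0.35.

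**Figure D4:**
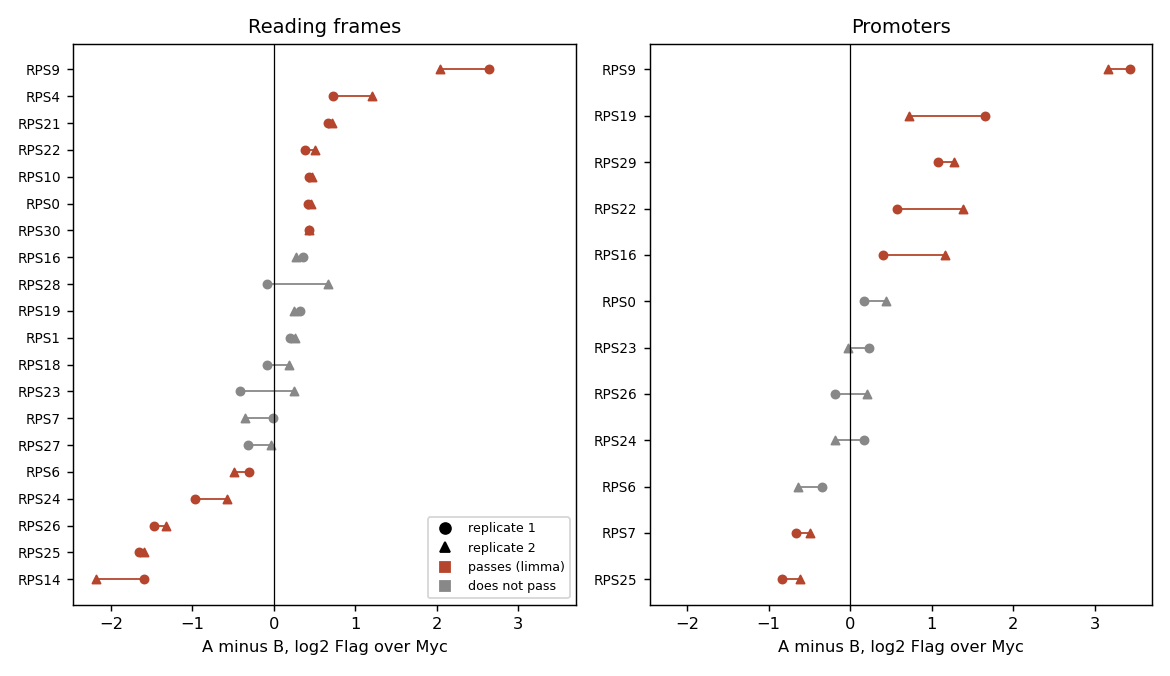
A minus B difference in log2 Flag over Myc on replicate 1 (circles) and replicate 2 (triangles) for 20 pairs of reading frames and 12 pairs of promoters, with pairs that passed the limma test in red. RPS9 is at the positive end in both regions, with means of 2.34 and 3.30, and RPS14 is at the negative end of the frames at -1.88.

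Promoters of 14 pairs could be compared, and 7 passed, against 11 of 18 other pairs and 56.2% of all 32 pairs in the fit. RPS9 had the widest difference there too, 3.43 and 3.17 on the arrays (3.30 ± 0.18, 9.85-fold, limma adjusted p = 1.9e-13), on an RPS9A probe shared with MOT1. With dim probes kept, the RPS9 difference was 2.10 and still passed. RPS19 followed at 1.66 and 0.72, RPS29 at 1.08 and 1.27, RPS22 at 0.58 and 1.38 and RPS16 at 0.40 and 1.17, all with the A copy higher. Here too the p-values rest on 1 common spread, taken over all 32 pairs and not over each pair alone. The SDs of RPS19, RPS22 and RPS16 themselves were 0.66, 0.56 and 0.54. In RPS25 (-0.84 and -0.61) and RPS7 (-0.67 and -0.49) the B copy was higher. Apart from RPS9, these calls depend on the settings: 1 pair passed with normexp background correction, and none of 10 with a 300 bp promoter, where 5 of the pairs had an unadjusted limma p under 0.05. The RPS9A probe lies outside that window, so RPS9 was not measured there. RPS6 at -0.49 ± 0.21, RPS0 at 0.30 ± 0.19 and RPS23 at 0.10 ± 0.19 did not pass. Among the closest were RPS26 (-0.19 and 0.21) and RPS24 (0.17 and -0.18), each with opposite signs on the arrays. In the 12 pairs measured in both regions 3 passed in both, RPS9, RPS22 and RPS25, and in each the same paralog was higher. The same count was not made for other pairs, so no share can be set beside it. In RPS22 the frames are of 393 and 876 bp, with 2 and 4 probes. Its frame call was lost with normexp, with loess and with medians over probes. RPS26 differed in the frame, with promoters at 1.68 and 1.67, though these cover unlike places. The RPS26A value is 1 probe at 408 bp, shared with a neighbouring gene. That of RPS26B is the mean of 1.41 at 394 bp and 1.93 at 74 bp.

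The probe values of the outlying genes show where along each gene the ratio was high. In RPS3 it declined from 4.09 at 419 bp upstream through 2.82 at 83 bp in the frame to 1.88 at 380 bp and 1.79 at 523 bp. In RPS22B, whose intron holds a small nucleolar RNA, the order was the opposite. Its probes read 0.12 and -0.95 at 87 bp, 1.13 and 0.85 at 343 bp, 2.08 and 1.65 at 624 bp and 1.99 and 1.20 at 872 bp, and on both arrays the last 2 lay above the first 2. RPS26B rose from 1.41 at 394 bp upstream through 1.93 at 74 bp to 3.03 in the frame. RPS25B was high at both ends, 2.56 at 489 bp upstream and 1.95 in the frame, with 0.82 at 168 bp upstream between them.

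**Figure D5:**
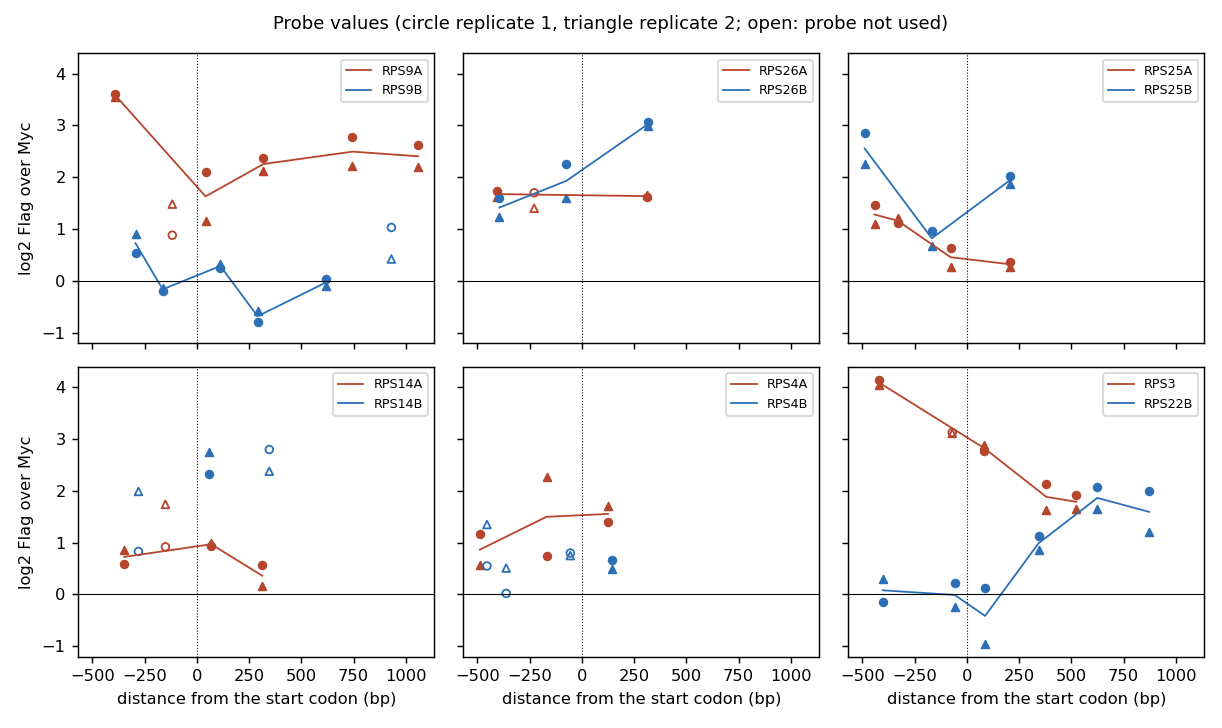
Log2 Flag over Myc of single probes by distance from the start codon for 12 RPS genes, with circles for replicate 1, triangles for replicate 2, open symbols for probes that were dim or carried an outlier flag, and lines through the means of used probes. By the means of used probes, RPS9A runs between 1.63 and 3.58 while RPS9B stays between -0.68 and 0.72. Single-array values and open symbols reach beyond these ranges. RPS3 falls along the gene while RPS22B rises.

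Other genes of the pathway were counted from lists of regulators, assembly factors and ribosome-bound partners, and their difference from RPS genes was not tested. Of 13 regulators of ribosomal protein genes, 1 had a higher frame, against 39.1% of all genes, and 7 had a lower one, against 42.9%. Their median was -0.28. The higher one was CRF1, a corepressor of these genes, at 0.45 ± 0.14. The lowest were the kinase genes TOR1 at -1.02 ± 0.11 and TOR2 at -0.82 ± 0.02, both with 22 probes and far longer than any RPS gene. RAP1, FHL1, STB3, ABF1 and SCH9 did not pass, and SCH9 at -0.01 ± 0.11 and FHL1 at -0.01 ± 0.10 came next after CRF1. Their promoters were higher in 12 of 13, against 75.9% of all promoters, led by STB3 at 2.85 ± 0.17 and the activator gene SFP1 at 2.50 ± 0.03, with TOR1 at 0.25 ± 0.02 not passing and TOR2 at 0.38 ± 0.10.

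Of 15 genes for 40S assembly factors and chaperones, 7 frames were higher, against 39.1% of all genes, and 6 lower, against 42.9%, so these shares lay near those of the genome. YAR1, which encodes the chaperone of Rps3, had 2.02 ± 0.36 and the kinase gene RIO1 had 1.28 ± 0.05. The helicase gene ECM16 had -1.27 ± 0.10 and RRP12 had -1.05 ± 0.12. All 10 of their measured promoters were higher, as were 75.9% of all promoters, from 0.42 ± 0.07 for DIM1 and 0.57 ± 0.21 for NOB1 to 1.80 ± 0.28 for YAR1 and 2.49 ± 0.11 for RIO1. Of the genes for ribosome-bound partners, ASC1 had 0.45 ± 0.20 in the frame and 0.81 ± 0.34 in the promoter, and STM1, which encodes a factor that holds resting ribosomes together, had 2.94 ± 0.09 and 1.88 ± 0.05. The frame of STM1 is close to that of RPS26B, the highest of the 53.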

How the data were processed

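Histone ratios came from 2 two-colour Agilent arrays of 60 bp probes with a median spacing of 267 bp. Per the file headers, the deposited intensity values are the output of Agilent Feature Extraction 8.5.1.1, with local background subtraction and a linear dye normalization per channel. Per the file headers, the authors' log10 ratio sets red over green (Myc over Flag), and its sign was turned here. The deposited value table holds log2 values of the same red over green signals, uncentred, to within 4.9e-08 of the scanner files, with medians of 0.37 and 0.35, and was used as an alternative. The genome build of the probe positions was not given in the sources used here, so coordinates are those of the files.

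The log2 ratio of the processed Flag and Myc signals was centred on each array's median (-0.46 on both before centring). Of 41282 nuclear probes, 3964 that fell short of well above background in a channel of an array, and another 2419 that carried an outlier flag, were not used. No probe was saturated. Array number limits the precision, and no counts exist.

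Start codons were found from the distances the probe annotation gives, and frame lengths come from the reference gene table. Of 6593 listed frames 5927 matched it, 18 were contradicted by the probes and 5909 were used. Gene means were tested with limma 3.58.1 in R 4.3.3 on an intercept with eBayes, Benjamini-Hochberg over each whole table and a threshold of 0.05, and the scripts were tested on simulated data. A value ± is the SD of 2 arrays. With 1 group, only the difference from the array median, between regions and between paralogs could be tested.

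The genes, lists and tests were chosen with earlier results of these data known. Named by rule were the highest and lowest 6 frames and promoters, all that did not pass, every pair and the largest 6 promoter minus frame differences each way. In the lists of other genes, the 2 highest and 2 lowest were named. Probes and genes described along their length were picked after their values were seen. Alternatives were normexp (offset 50), loess, equal scaling of the arrays, no filter on dim probes, flagged probes kept, the value table, medians over probes, a variance trend, other probe rules and leaving out an array. Probe sequences were not used here. Values of some member genes are not reported here, though the counts and medians include them.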

Additional observations from a re-analysis of the deposited data

How the results depend on the processing

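The deposited value table and equal scaling of the arrays changed no call of an RPS frame, promoter or pair. Of 43 called frames 33 stayed called in the same direction under every alternative that measured them, as did 24 of 33 promoters, 11 of 21 promoter minus frame differences, 9 of 14 frame pairs (among them RPS4, RPS9, RPS14, RPS21, RPS24, RPS25 and RPS26) and 1 of 7 promoter pairs (RPS9), and none of these calls was turned into the opposite call. The count of lower frames was 6 without the dim filter. Lower promoters by limma numbered 0 with normexp, also at an unadjusted p, and 2 with a 300 bp promoter. Promoter minus frame had 10 higher and 10 lower calls with loess, with a median of -0.04, and the median was 0.10 without shared promoter probes and 0.15 with flagged probes kept. Promoter pairs called were 1 with normexp, 4 without the dim filter and 0 of 10 with a 300 bp promoter. The cause was not tested, except that the 300 bp promoter measured fewer pairs.

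Changes of sign among named values were these, and 3 of them passed in the turned direction: RPS27A with loess (limma adjusted p = 0.034), and RPS10B and RPS6A with normexp (adjusted p = 0.033 for both). RPS10B was called lower with loess (-0.59, adjusted p = 0.0078) and without the dim filter (-0.28, adjusted p = 0.026), so its direction is not settled. With loess, frames of RPS0B (-0.04), RPS24A (0.03), RPS27A (-0.33) and RPS9B (0.03), promoters of RPS1A (0.00) and RPS9B (-0.13), frame pairs RPS23 (0.58) and RPS28 (-0.13), and promoter pairs RPS23 (-0.09) and RPS26 (-0.50). With normexp, frames of RPS10B (0.28), RPS27A (-0.06) and RPS6A (0.24), and promoter pairs RPS24 (0.22) and RPS26 (-0.05). Without the dim filter, the frame of RPS27A (-0.01), the promoter of RPS22B (-0.07), the frame pair RPS30 (-0.17), and promoter pairs RPS24 (0.37) and RPS26 (-0.06). With flagged probes kept, the frame of RPS9B (0.07), and with a 300 bp promoter that of RPS22B (-0.01). The cause was not tested.

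Leaving out an array leaves the value of the other with no test. Medians then ran from 0.57 to 0.59 for frames, from 0.94 to 0.95 for promoters, from 0.27 to 0.32 for promoter minus frame, and in size from 0.42 to 0.50 for frame pairs and from 0.54 to 0.55 for promoter pairs. No paired analysis was possible because there is 1 group. A variance trend could not be fitted for promoters and promoter minus frame, and leaving out intron probes was not run, since the gene table used gives no intron positions. Signal over background limits promoters most: 57 of 114 RPS promoter probes were dim, and 54 were used.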
